A study of Mus musculus with 8 samples.

Results

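The 1000 regions described here are stretches of open chromatin that were present in all 4 ATAC-seq libraries of early T-lineage progenitors and whose peaks were stronger in the Tcf7/Lef1 knockout libraries. ATAC-seq marks open chromatin by the places where a transposase can insert. The peaks of the 4 deposited lists were merged wherever they overlapped by at least 1 base, which gave 134830 regions outside the mitochondrial genome. Of these, 79684 held a peak in every list and are called shared regions below. In each library a region took the highest fold enrichment over local background that the authors' peak caller gave to any of its peaks, as log2, less the median of that library over the shared regions. The 1000 regions with the highest mean knockout minus mean control difference were taken, where both knockout values lay above both control values. They are called strengthened regions, and a mirrored set of 1000, taken the other way round, is called weakened regions. Both sets were chosen by fold enrichment in these 4 libraries, so its values in them are given as a description with no test.

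The knockout cells came from CreER+ mice with floxed Tcf7 and floxed Lef1 alleles, and the control cells from CreER+ WT mice. Both sets of donors therefore carried the inducible Cre recombinase. LSK marrow progenitors (cells with Sca-1 and c-Kit but no lineage markers) of each genotype were cultured over OP9-DL1 stroma, which presents a Notch ligand. All cultures received 4-OH tamoxifen on days 3 to 5, and c-Kit+ DN1 cells (negative for lineage markers, CD4, CD8 and CD25, and high for CD44) were sorted on day 7. The labels do not give the promoter of CreER. Each assay had 2 knockout and 2 control libraries. Nothing in the labels says whether libraries of 1 genotype came from separate animals or cultures, so p-values measure only the spread between these libraries, which may be technical.

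TCF1 (encoded by Tcf7) and LEF1 are related transcription factors that bind DNA through an HMG box and act with co-activators or co-repressors. TCF1 is induced by Notch signalling in the earliest thymic progenitors and takes part both in opening chromatin at T-lineage genes and in holding other programmes down. Open regions far from gene starts are often enhancers, whereas those at gene starts are promoters.

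Tcf7 RNA stood at 13.2 and 12.4 TPM (a level scaled to transcript length and library size) in the knockout libraries, against 518 and 510 TPM in the control libraries. Lef1 stood at 1.46 and 1.57 TPM in the knockout libraries, against 1.66 and 1.1 TPM in the control libraries, so its groups overlapped and its RNA total checks no label. Among sort markers, Kit was present at 157 and 157 TPM in the knockout libraries and 251 and 238 TPM in the control libraries, and Cd44 at 103 and 105 TPM against 94 and 109 TPM. Ptprc, which encodes the leukocyte marker CD45, stood at 129 and 142 TPM in the knockout libraries, against 207 and 232 TPM in the control libraries (log2 change -0.69, limma adjusted p = 0.00203). Il2ra, which encodes CD25, was near 0 in the knockout libraries, at 0.658 and 0.393 TPM, but reached 136 and 133 TPM in the control libraries although the gate was CD25-negative. The peak lists held 109380 and 111007 peaks in the knockout libraries and 103009 and 105227 in the control libraries. Across shared regions, centred values correlated at 0.937 between the knockout libraries, at 0.936 between the control libraries and at 0.859 to 0.860 between genotypes; these are correlations across regions, which are not independent replicates.

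5 strengthened regions that lay at a gene start are shown first, because there the sequence could be read. They are the pair with the strongest differences at a gene start (Cyp2j6 and Prickle2), the start with the largest RNA rise (Ms4a3), the start of a collagen gene that rose (Col1a2) and the strongest region at a start whose RNA fell (Arhgef18). Each line gives the 250 bases upstream of the RefSeq gene start in the build GRCm38.p6 (the assembly also called mm10), on the strand of the gene and read 5′ to 3′. Capitals mark AGATAA (for GATA factors), GGAAGT (ETS), TTGCNNAA (C/EBP) or TGGGAA (RBPJ) on either strand, so TTCCCA is TGGGAA read on the other strand. The stretches lie at chr4:96553652-96553901 on the minus strand (Cyp2j6), chr6:92706185-92706434 on the minus strand (Prickle2), chr19:11640852-11641101 on the minus strand (Ms4a3), chr6:4505368-4505617 on the plus strand (Col1a2) and chr8:3392758-3393007 on the plus strand (Arhgef18).
Cyp2j6: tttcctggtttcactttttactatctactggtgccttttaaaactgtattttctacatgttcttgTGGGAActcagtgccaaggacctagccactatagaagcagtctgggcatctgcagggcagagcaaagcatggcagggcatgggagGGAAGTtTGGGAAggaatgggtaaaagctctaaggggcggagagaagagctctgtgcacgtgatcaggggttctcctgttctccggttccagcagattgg
Prickle2: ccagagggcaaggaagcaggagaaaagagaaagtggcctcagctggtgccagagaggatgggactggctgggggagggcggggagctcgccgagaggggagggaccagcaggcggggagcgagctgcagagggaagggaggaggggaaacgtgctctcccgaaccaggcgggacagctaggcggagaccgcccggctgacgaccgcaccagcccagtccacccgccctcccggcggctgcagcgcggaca
Ms4a3: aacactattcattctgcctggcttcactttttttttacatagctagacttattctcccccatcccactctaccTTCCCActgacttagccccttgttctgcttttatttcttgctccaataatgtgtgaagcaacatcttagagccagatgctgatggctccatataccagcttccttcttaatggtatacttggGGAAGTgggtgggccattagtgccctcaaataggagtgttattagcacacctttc
Col1a2: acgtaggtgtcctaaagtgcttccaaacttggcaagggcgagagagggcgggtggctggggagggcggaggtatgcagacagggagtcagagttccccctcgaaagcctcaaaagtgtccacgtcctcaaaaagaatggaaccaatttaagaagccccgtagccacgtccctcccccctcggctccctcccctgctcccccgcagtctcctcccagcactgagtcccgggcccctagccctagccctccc
Arhgef18: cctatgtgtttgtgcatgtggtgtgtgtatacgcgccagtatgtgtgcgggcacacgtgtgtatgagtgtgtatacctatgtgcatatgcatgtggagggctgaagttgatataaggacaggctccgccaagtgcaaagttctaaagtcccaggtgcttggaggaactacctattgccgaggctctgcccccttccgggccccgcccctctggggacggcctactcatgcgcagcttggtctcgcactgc

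The strengthened regions cover the printed stretches of Prickle2, Ms4a3 and Col1a2 whole, and those of Cyp2j6 and Arhgef18 in part. The Cyp2j6 stretch holds TGGGAA at 2 places and GGAAGT once, and the Ms4a3 stretch holds each of them once. Of the marked letters in the Cyp2j6 stretch, GGAAGT and the TGGGAA next to it lie inside the strengthened region and the other TGGGAA lies outside it, and both in the Ms4a3 stretch lie inside. None of the 4 marked motifs is in the printed stretches of Prickle2, Col1a2 or Arhgef18. A match is a description of the letters only. Fold enrichment at the Cyp2j6 region was 11.1 and 10.9 in the knockout libraries, against 4.2 and 4.41 in the control libraries. At the Prickle2 region it was 9.78 and 13.2 in the knockout libraries, against 4.52 and 4.43 in the control libraries. Cyp2j6 encodes a cytochrome P450 and Prickle2 a planar cell polarity protein.

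Strengthened regions were weak peaks in control cells that reached an ordinary height in knockout cells. Their median fold enrichment was 12.0 and 12.3 in the knockout libraries and 6.32 and 6.20 in the control libraries. Over all shared regions the medians were 10.5 and 10.6 in the knockout libraries and 10.3 and 10.3 in the control libraries. Below the shared median lay 268 of them (26.8%) in knockout cells, against 985 (98.5%) in control cells. The median strengthened region stood at the 61.1th percentile of shared regions in knockout cells and at the 16.1th percentile in control cells. Weakened regions were placed the other way, with their median at the 16th percentile in knockout cells and at the 70.7th in control cells. The peak caller's median −log10 q at strengthened regions was 30.5 and 32.1 in the knockout libraries, against 9.21 and 9.84 in the control libraries.

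**Figure D1:**
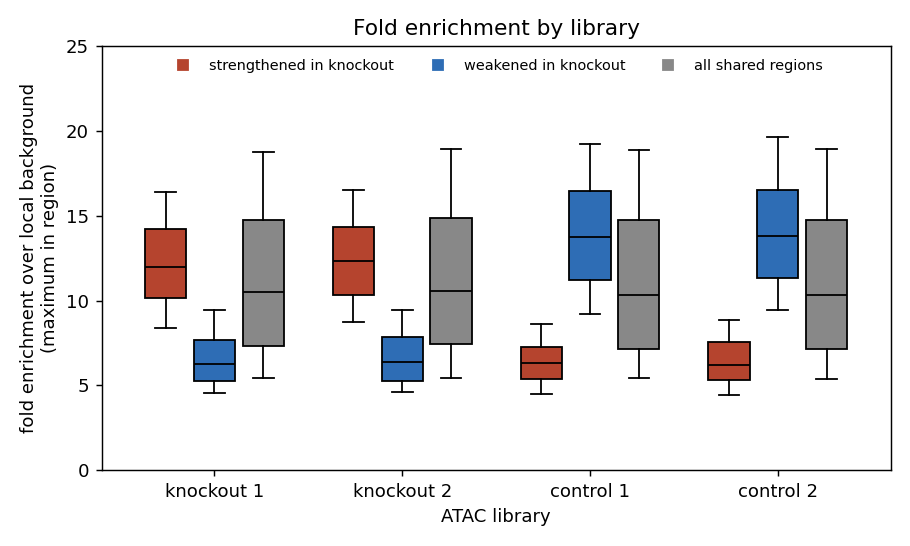
Fold enrichment over local background (linear axis, highest value in each region) in the 2 knockout and 2 control ATAC libraries. Boxes span the quartiles with the median as a line and whiskers reach the 10th and 90th percentiles over 1000 strengthened, 1000 weakened and 79684 shared regions; strengthened regions have medians of 12.0 and 12.3 in knockout and 6.32 and 6.20 in control, which the choice of regions fixes.

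The difference, knockout minus control on the centred log2 scale, ran from 0.765 to 1.73 over the 1000 regions. Both knockout values lay above both control values in 19899 of all shared regions, or 25%, and both control values above both knockout values in 22866, or 28.7%. At strengthened regions the median absolute difference between the 2 knockout libraries was 0.152 and that between the 2 control libraries was 0.230, against 0.132 and 0.134 over all shared regions. Many low peaks shared a few values, spaced by steps of 0.44 and 0.436 in the knockout libraries and 0.452 and 0.443 in the control libraries. Within 0.02 of a step lay 20.8% and 20.7% of the strengthened regions' values in the knockout libraries, against 52.1% and 51.9% in the control libraries. The median strengthened region stood 27.2 and 28.3 steps high in the knockout libraries and 14 and 14 steps high in the control libraries, so 1 step is a larger part of the control value. Just inside the limit, the regions nearest to Foxp1, Dnajb9 and Lysmd4 had differences of 0.7655, 0.7654 and 0.7652, and just outside it those nearest to Ccr3, Pcdh9 and Oat had 0.7650, 0.7649 and 0.7648.

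A choice made with 1 library of each genotype could be read in the other libraries. The 1000 regions with the highest difference in the libraries numbered 1 had a median difference of 0.993 there and of 0.575 in the libraries numbered 2. Of them, 892 (89.2%) were above 0 in the libraries numbered 2, against 48.5% of all shared regions, and 564 were also strengthened regions. In the opposite direction the median was 1.01 where the regions were chosen and 0.572 where they were read. There 905 (90.5%) were above 0, against 47.6% of all shared regions, and 568 were also strengthened regions. The difference was smaller where it was only read. Since every shared region had to have a peak in all 4 lists, and the strengthened regions were chosen on all 4 libraries, this describes the same libraries and is not separate support for the set.

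**Figure D2:**
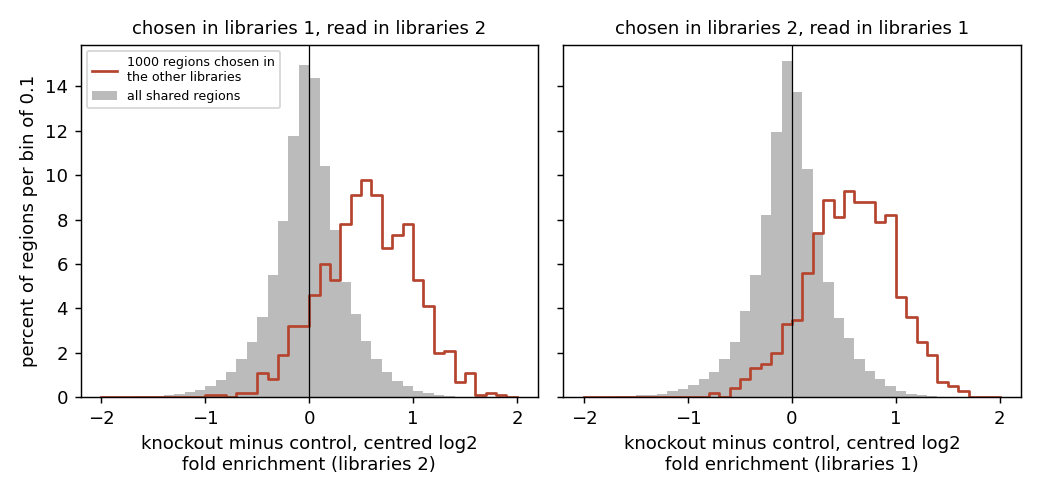
Percent of regions in each bin of 0.1 of the knockout minus control difference in centred log2 fold enrichment, for 1000 regions chosen in the other libraries (red line) and all shared regions (grey bars). The red line is shifted to the right of 0 in both panels, with 89.2% (left) and 90.5% (right) of the chosen regions above 0; values beyond the axis are put in the outermost bins. The strengthened regions were chosen on these same libraries, so the shift is not separate support for the set.

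Strengthened regions lay far from gene starts. Their midpoints were a median of 31582 bases from the nearest start in the deposited gene models, close to the 32595 bases of weakened regions, against 16194.5 bases over all shared regions. Only 59 (5.9%) lay within 1 kb of a start in these models, against 25 (2.5%) of the weakened regions and 18.1% of all shared regions. Some strengthened regions outside the 59 held a RefSeq gene start, such as those of Gm30509, Maml2 and Spag9. The count thus depends on the gene models used. Beyond 100 kb lay 191 of the strengthened regions. A gene model contained 548 of them (54.8%), close to the 53.7% of all shared regions. Their median width was 339 bases, against 365 bases over all shared regions, and 37 (3.7%) held several peaks of 1 list, against 6.12%.

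**Figure D3:**
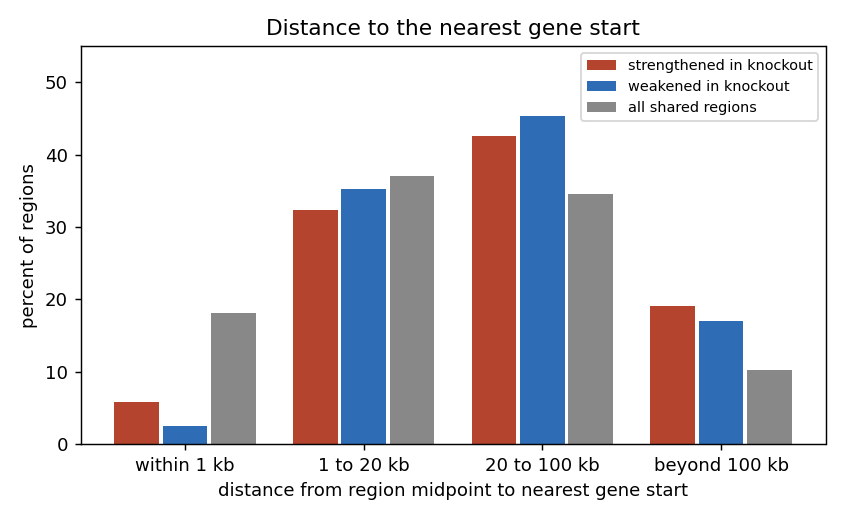
Percent of strengthened (red), weakened (blue) and all shared regions (grey) by distance from the region's midpoint to the nearest gene start in the deposited gene models. Within 1 kb lie 5.9% of the strengthened regions, against 18.1% of all shared regions.

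Similar shares of the strengthened and weakened regions lay close to another of the same set. No random draw of shared regions was made, so whether these shares are low or high was not tested. Within 50 kb of another of the same set lay 75 (7.5%) of the strengthened and 81 (8.1%) of the weakened regions. Some regions had peaks in both knockout lists and in no control list. Within 50 kb of such a region lay 46.1% of the strengthened, 46.6% of the weakened and 48.8% of all shared regions. Within 50 kb of a region found in both control lists only, the shares were 36.4%, 42.8% and 41.2%. The share of a chromosome's shared regions that was strengthened ran from 0.827% on chromosome 5 to 1.73% on chromosome X, leaving out chromosome Y, which held 0 of 13. No strengthened region overlapped any of the 1005 miRNA hairpins of RefSeq.

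Nearest genes within 100 kb numbered 783, of which 758 had 1 strengthened region, 24 had 2 and Rad18 had 3. RNA was tested with limma on log2(TPM + 1) for 13228 genes with a mean of at least 1 TPM, and a gene was called at a Benjamini-Hochberg adjusted p under 0.05. Over all tested genes 25.2% were called higher and 14.7% lower in knockout cells. Of the 510 nearest genes that could be tested, 135 (26.5%) were called higher and 88 (17.3%) lower, and 287 were not called. Their median change was 0.10 on the log2(TPM + 1) scale, against 0.09 over all tested genes. These shares are near the background. Of all calls, 63.2% were higher as deposited, 51.9% after median-ratio scaling and 53.2% after quantile normalization. Among the nearest genes the split was 135 higher and 88 lower as deposited, 115 and 108 after median-ratio scaling and 119 and 105 after quantile normalization. With 1 library left out, the counts were 84 higher and 53 lower without control library 1, 85 and 49 without control library 2, 86 and 71 without knockout library 1, and 105 and 75 without knockout library 2.

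In TPM as deposited, the share called higher was somewhat larger among closer genes, where fewer genes could be tested. Within 20 kb, 76 of 254 tested genes (29.9%) were called higher and 33 (13%) lower, with a median change of 0.21, against 25.6% and 15% for the nearest genes of all shared regions at that distance. Within 1 kb, 11 of 31 (35.5%) were called higher and 3 (9.68%) lower, with a median change of 0.40, against 27% and 14.9%. Near weakened regions within 20 kb, 20.9% were called higher and 22.2% lower. The 28 genes within 1 kb that could not be tested were under the TPM minimum, and no test of these shares against one another was made. The shares within 1 kb and 20 kb were read only in TPM as deposited with all libraries, not under other scalings. Many of the calls within 1 kb were lost with 1 library left out, as given further on. Among those called higher these were Hist1h4n, Gspt2, Ccdc8, Thbs2, Bmpr1a and Sema5a, whereas Ms4a3, Dpysl3, Col1a2, Zfp820 and Echs1 kept the call. Among those called lower, Cd28 and G530011O06Rik lost it and Arhgef18 kept it.

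**Figure D4:**
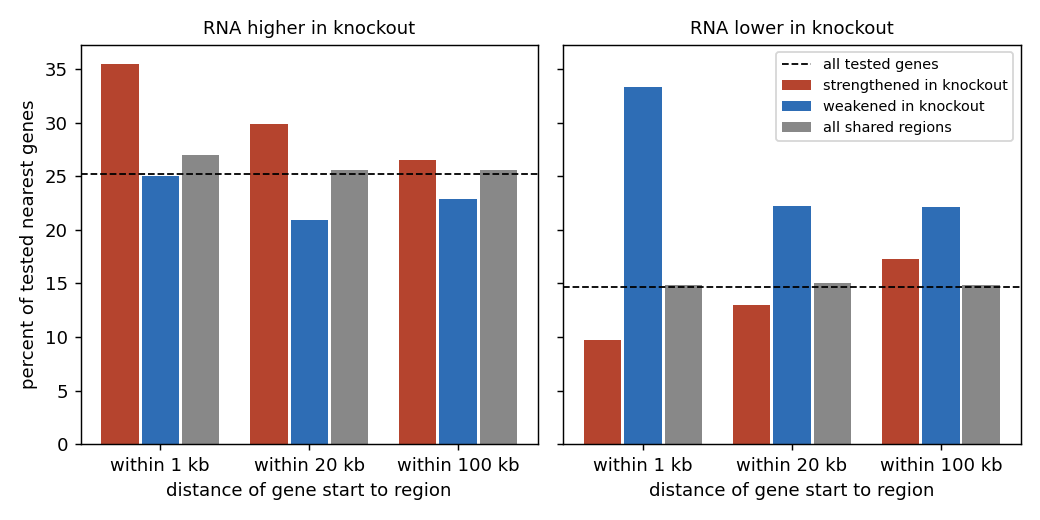
Percent of tested nearest genes whose RNA was called higher (left) or lower (right) in knockout cells by limma at an adjusted p under 0.05, for strengthened (red), weakened (blue) and all shared regions (grey) at 3 cumulative distances; dashed lines mark 25.2% and 14.7% of all tested genes. Near strengthened regions the share called higher is 35.5% within 1 kb (31 genes), 29.9% within 20 kb and 26.5% within 100 kb.

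The nearest genes of the strongest regions had unrelated functions, and their RNA moved in both directions, was not called or could not be tested. Some of these genes were far away. The starts of Cxcr4, Trim33, Ndufa4 and Oprm1 lay 154501, 104078, 359908 and 132225 bases from their regions, and that of Schip1 96169 bases. The strongest, at chr6:115066017-115066306 in mm10, lay 28287 bases upstream of Tamm41, which makes a precursor of the mitochondrial lipid cardiolipin. Its fold enrichment was 18.0 and 17.6 in the knockout libraries, against 5.73 and 4.84 in the control libraries. Tamm41 RNA stood at 38.1 and 41.8 TPM in the knockout libraries, against 20.3 and 23.9 TPM in the control libraries, and rose (log2 change 0.83, SE 0.11, limma adjusted p = 0.00347). The groups did not overlap.

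The second, at chr1:128746638-128746962, lay 154501 bases upstream of Cxcr4, the receptor for the chemokine CXCL12. Its fold enrichment was 15.9 and 16.2 in the knockout libraries, against 5.19 and 5.36 in the control libraries. Cxcr4 RNA was lower, at 43.3 and 45.5 TPM in the knockout libraries against 51.4 and 59.9 TPM in the control libraries (log2 change -0.32, SE 0.09, limma adjusted p = 0.0415), so the region was stronger where the nearest gene's RNA was lower. That call was lost without knockout library 1 (adjusted p = 0.15), knockout library 2 (0.095) or control library 2 (0.14), and with no filter on low values (0.072). The region at chr3:136684579-136684957, inside Ppp3ca, a catalytic subunit of calcineurin, had 12.6 and 12.3 in the knockout libraries, against 4.04 and 4.76 in the control libraries. Ppp3ca RNA stood at 43.4 and 42.4 TPM in the knockout libraries, against 34.8 and 35.1 TPM in the control libraries (log2 change 0.29, SE 0.07, limma adjusted p = 0.0204). This call was lost without any 1 of the 4 libraries (adjusted p of 0.064 to 0.086) and under median-ratio scaling (0.056).

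Ndufa4, a subunit of the respiratory chain, rose to 179 and 186 TPM in the knockout libraries, against 73.5 and 90.7 TPM in the control libraries (log2 change 1.15, SE 0.10, limma adjusted p = 0.0012), but its region lay 359908 bases away. Trim33, a chromatin-linked ubiquitin ligase, stood at 25.5 and 24.3 TPM in the knockout libraries and 25.6 and 25.2 TPM in the control libraries, and its groups overlapped. Ankrd46 stood at 17.6 and 17.4 TPM against 17.1 and 18 TPM. Slc6a6, the taurine transporter, stood at 56.2 and 60.5 TPM in the knockout libraries and 55.4 and 53.1 TPM in the control libraries and was not called (limma adjusted p = 0.266). Padi1, Schip1 and Oprm1, a peptidylarginine deiminase, a schwannomin-binding protein and an opioid receptor, were below the TPM minimum.

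Rad18, Tango6, Ankrd46, Tha1, Rbp2, Clcn3, 1700012I11Rik, Lrba, Mir7661 and Fgd4 were the 10 genes with the most strengthened regions, with the tie among 24 genes at 2 regions settled by the summed difference; Zbtb16, also at 2 regions, is given with its list. Rad18, a ubiquitin ligase of the response to DNA damage, had 3 of them and stood at 33.4 and 29.4 TPM in the knockout libraries, against 22.3 and 21.3 TPM in the control libraries (log2 change 0.50, SE 0.10, limma adjusted p = 0.0114). That call was lost without knockout library 1 (adjusted p = 0.056), control library 1 (0.055) or control library 2 (0.068). Of the other 9 genes with the most regions, Tango6, Ankrd46, Tha1, Clcn3, Lrba, Mir7661 and Fgd4 were not called, and Rbp2 and 1700012I11Rik were at 0 in all 4 libraries. Fgd4, an activator of the GTPase CDC42, stood at 4.26 and 4.55 TPM in the knockout libraries, against 2.89 and 2.56 TPM in the control libraries (limma adjusted p = 0.0682).

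Among the 10 largest rises near strengthened regions, Ms4a3, Gata2 and Mecom belong to the gene lists, whose other members moved in both directions as given further on. Ms4a3, a membrane protein of granulocyte and monocyte progenitors, had 68.1 and 58.7 TPM in the knockout libraries, against 13.7 and 12 TPM in the control libraries (log2 change 2.22, SE 0.11, limma adjusted p = 0.00034). Its region, chr19:11640721-11641157, covers the stretch printed above and had a fold enrichment of 17.4 and 18.0 in the knockout libraries, against 6.78 and 8.42 in the control libraries. Gata2, a transcription factor of stem cells and mast cells, had 67.8 and 64.4 TPM in the knockout libraries, against 21.8 and 22.9 TPM in the control libraries (log2 change 1.52, SE 0.07, limma adjusted p = 0.000299). Its region, chr6:88174223-88174497, lay 24304 bases upstream and had 8.8 and 10.6 in the knockout libraries, against 4.97 and 5.32 in the control libraries. Mecom, which encodes the stem cell factor EVI1, had 6.2 and 6.08 TPM in the knockout libraries, against 2.04 and 1.8 TPM in the control libraries (log2 change 1.29, SE 0.18, limma adjusted p = 0.00441). Its region lay inside the gene, 32313 bases from the start. All 3 genes were higher in both knockout libraries than in both control libraries, which the rule for naming them required.

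The other 7 of the 10 largest rises had diverse functions. Sfrp2, a secreted modulator of Wnt signalling, had 28.4 and 18.4 TPM in the knockout libraries, against 7.1 and 6.53 TPM in the control libraries. Slc24a3, a sodium, potassium and calcium exchanger, had 20.6 and 18.7 TPM in the knockout libraries, against 5.18 and 7.07 TPM in the control libraries. Plxna1, a semaphorin receptor, had 12.9 and 12.7 TPM in the knockout libraries, against 3.72 and 4.13 TPM in the control libraries. Parva, a focal adhesion protein, had a log2 change of 1.33, Ptgfr, a prostaglandin receptor, 1.67, and Dpysl3, a cytoskeletal regulator whose start lay 27 bases from the midpoint of its region, 1.58. Pdzrn3, a ubiquitin ligase, had a log2 change of 1.30 (SE 0.25, limma adjusted p = 0.0118), a call lost without knockout library 1 (adjusted p = 0.061) or knockout library 2 (0.054).

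Markers of stroma and adipocytes were fixed as a list of 18 genes, all of which could be tested. Against 25.2% called higher over all tested genes, 15 of these markers rose, with a median log2 change of 1.32. Their summed level was 2686 and 2265 TPM in the knockout libraries, against 1137 and 1146 TPM in the control libraries, and no marker was at 0 in every library. Their part in the results for Sfrp2, Parva, Dpysl3, the collagen genes and the other genes named here was not tested. Nor was the part of stromal cells in the ATAC values by which the strengthened regions were chosen. Ptprc fell as given above, and in bulk RNA fewer cells of a type cannot be told apart from less RNA per cell. Col1a1, a collagen chain, had 152 and 124 TPM in the knockout libraries, against 61.3 and 63.5 TPM in the control libraries (log2 change 1.13, SE 0.10, limma adjusted p = 0.0012). Its region, chr11:94945235-94945556 inside the gene, had a fold enrichment of 11.2 and 10.3 in the knockout libraries, against 4.78 and 5.1 in the control libraries. Col1a2, the partner chain, had 189 and 163 TPM in the knockout libraries, against 80.7 and 86.6 TPM in the control libraries (log2 change 1.06, SE 0.08, limma adjusted p = 0.000872). Its region lies at the start printed above and had 8.51 and 9.39 in the knockout libraries, against 6 and 4.08 in the control libraries.

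**Figure D5:**
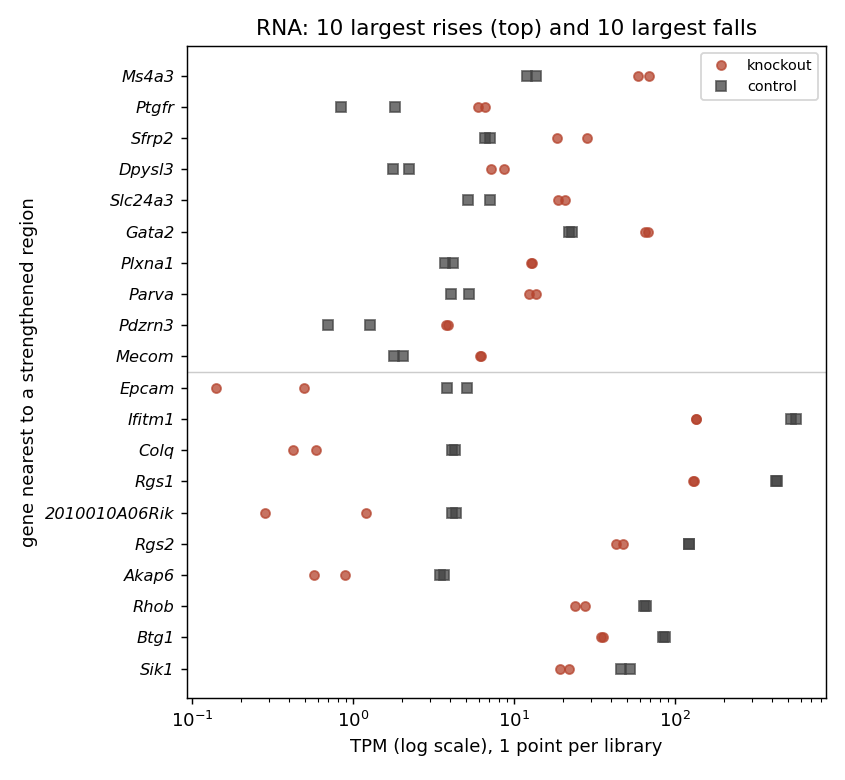
RNA level in TPM (log axis) of the 10 nearest genes within 100 kb of a strengthened region with the largest rises (above the line) and the 10 with the largest falls (below it), 1 point per library, knockout in red and control in grey. The groups do not overlap for any of the 20, which the rule for naming them required; Ms4a3 stands at 68.1 and 58.7 TPM in knockout, against 13.7 and 12 TPM in control.

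Other strengthened regions had a nearest gene whose RNA fell. Ifitm1, an interferon-induced membrane protein, had 134 and 134 TPM in the knockout libraries, against 565 and 522 TPM in the control libraries (log2 change -2.01, SE 0.05, limma adjusted p = 8.38e-05). Its region, 3916 bases from the start, had a fold enrichment of 6.24 and 6.68 in the knockout libraries, against 3.42 and 3.14 in the control libraries. Rgs1 and Rgs2, which damp signals from G protein-coupled receptors, fell together. Rgs1 had 129 and 130 TPM in the knockout libraries, against 420 and 429 TPM in the control libraries (log2 change -1.71). Rgs2 had 42.9 and 47.3 TPM in the knockout libraries, against 121 and 122 TPM in the control libraries (log2 change -1.41). Both lie on chromosome 1, and each had its own strengthened region.

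Epcam, an adhesion molecule, had 0.496 and 0.141 TPM in the knockout libraries, against 5.06 and 3.79 TPM in the control libraries (log2 change -2.04, SE 0.28, limma adjusted p = 0.00397). Btg1, an antiproliferative factor, had 35.3 and 34.6 TPM in the knockout libraries, against 84.3 and 86.1 TPM in the control libraries. Rhob, a small GTPase, had 27.4 and 23.9 TPM in the knockout libraries, against 66 and 63.8 TPM in the control libraries. Sik1, a salt-inducible kinase, fell by 1.23 on the log2 scale, Colq, the collagen tail of acetylcholinesterase, by 1.80 and Akap6, an anchor of protein kinase A, by 1.41. For 2010010A06Rik the fall of 1.64 (log2, limma adjusted p = 0.0129) was lost without control library 1 (adjusted p = 0.076) or control library 2 (0.07). RNA of the nearest gene was thus higher for some strengthened regions and lower for others. Not all of these regions were close to the gene start. Among the falls, those of Rgs1, Rhob and 2010010A06Rik lay 69473, 66907 and 61922 bases away. Among the rises, those of Sfrp2 and Pdzrn3 lay 65058 and 90669 bases away.

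The gene lists held 19 genes that were the nearest gene of a strengthened region within 100 kb. Some of these regions were far from the start, such as those of Runx1 (61106 bases) and Etv6 (99364 bases) and 1 of Zbtb16 (90808 bases). The counts of each list stand beside 25.2% called higher and 14.7% called lower over all tested genes. In the list of stem and progenitor genes, 12 of 27 tested genes rose and 9 fell; of its 4 genes near strengthened regions Gata2 and Mecom rose, Runx1 fell and Etv6 was not called. Runx1, a factor of blood stem cells and early T cells, had 64.3 and 61.8 TPM in the knockout libraries, against 102 and 94.9 TPM in the control libraries (log2 change -0.63, SE 0.06, limma adjusted p = 0.00142). Etv6, an ETS-family repressor, had 165 and 167 TPM in the knockout libraries and 177 and 180 TPM in the control libraries (limma adjusted p = 0.0841 as deposited, 0.021 after median-ratio scaling). In the myeloid list 9 of 23 tested genes rose and 7 fell, and its summed level was 3650 and 3586 TPM in the knockout libraries, against 2010 and 1986 TPM in the control libraries; Ms4a3 and Cebpb belong to it. Cebpb, a myeloid transcription factor, was spread widely at 9 and 20.6 TPM in the knockout libraries, against 21.6 and 28.5 TPM in the control libraries, and was not called (limma adjusted p = 0.135; 0.016 without knockout library 2).

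In the T lineage list 20 of 24 tested genes fell, and 1 listed gene, the co-stimulatory receptor Cd28, lay near a strengthened region. The list includes the deleted genes Tcf7, whose fall is 1 of the 20, and Lef1, which was not called. Cd28 had 0.794 and 0.518 TPM in the knockout libraries, against 2.8 and 2.86 TPM in the control libraries (log2 change -1.21, SE 0.24, limma adjusted p = 0.0141). That call was lost without knockout library 2 (adjusted p = 0.053), control library 1 (0.061) or control library 2 (0.062). Its region at the gene start had a fold enrichment of 6.13 and 7.6 in the knockout libraries, against 3.62 and 4.1 in the control libraries, so a stronger peak stood beside lower RNA. Ikzf2, which encodes the Ikaros-family factor Helios, had 20.6 and 19.8 TPM in the knockout libraries, against 39.3 and 36.3 TPM in the control libraries (log2 change -0.87, SE 0.08, limma adjusted p = 0.00142). Zbtb16, the factor PLZF of innate-like lymphocytes, had 2 strengthened regions and stood at 10.1 and 9.62 TPM in the knockout libraries, against 14.8 and 15.5 TPM in the control libraries (limma adjusted p = 0.012). Zfpm1, a cofactor of GATA factors, stood at 53.6 and 50 TPM in the knockout libraries, against 61.4 and 66.3 TPM in the control libraries (limma adjusted p = 0.0239). The calls of Zbtb16 and Zfpm1 were lost without knockout library 2 (adjusted p of 0.053 and 0.095), control library 1 (0.059 and 0.055) or control library 2 (0.076 and 0.11).

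Genes of signal attenuation and kinases included 4 that were nearest to a strengthened region in the deposited gene models, and each of these failed the test. In that list 1 of 19 tested genes rose and 8 fell. Pik3cd, a phosphoinositide 3-kinase subunit of that list, has a RefSeq start inside a strengthened region although the nearest start in the deposited gene models is that of Mir7023. It had 71.05 and 72.03 TPM in the knockout libraries, against 139.3 and 138.4 TPM in the control libraries. Its RNA fell (log2 change -0.95, SE 0.05, limma adjusted p = 0.000337). Spag9 and Pakap also had a RefSeq start inside a strengthened region without being its nearest gene in the deposited models. Spag9 fell (log2 change -0.31, limma adjusted p = 0.0124) and Pakap rose (log2 change 1.38, limma adjusted p = 0.0421). The calls of Spag9 and Pakap were not reread under other settings. Spred1, an inhibitor of Ras and ERK signalling, had 42.9 and 41.5 TPM in the knockout libraries, against 35.1 and 38 TPM in the control libraries (limma adjusted p = 0.0782). Dusp6, an ERK phosphatase, had 75.9 and 81.6 TPM against 83.9 and 90.9 TPM (0.137 as deposited, 0.044 after quantile normalization). Spry2 and the kinase Lyn had limma adjusted p-values of 0.996 and 0.603. Of the remaining listed genes, Ets2, the early response factor Egr2 and the Notch co-activator Maml2 were not called (limma adjusted p of 0.053, 0.278 and 0.0671); Ets2 passed at a minimum of 5 TPM (0.047) and Maml2 after median-ratio scaling (0.043). In their lists, 7 of 21 tested GATA, RUNX, ETS and C/EBP-type factor genes rose and 8 fell, 1 of 18 AP-1 and immediate-early genes rose and 13 fell, and 8 of 14 Notch pathway genes fell. In the list of NK and innate lymphoid genes, which holds Zbtb16, 1 of 12 rose and 8 fell, and in the erythroid and megakaryocyte list, which holds Zfpm1, 4 of 11 rose and 2 fell. Mast cell and basophil genes, which include Gata2, rose in 13 of 19 cases and fell in 2. No gene of the dendritic cell or B lineage list was the nearest gene of a strengthened region.

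At the 59 gene starts within 1 kb of a strengthened region, 31 genes could be tested. Ms4a3, Dpysl3 and Col1a2 are given above. Zfp820, a zinc finger gene, had 6.78 and 7.03 TPM in the knockout libraries, against 2.09 and 2.93 TPM in the control libraries (limma adjusted p = 0.00767). Echs1, an enzyme of fatty acid oxidation, had 58.2 and 57.8 TPM in the knockout libraries, against 43.9 and 43.4 TPM in the control libraries (limma adjusted p = 0.00491). Hist1h4n, a histone H4 gene, had 392 and 450 TPM in the knockout libraries, against 291 and 310 TPM in the control libraries; its copies are near-identical, so its level is uncertain, and its call (limma adjusted p = 0.00565) was lost without control library 1 (0.052). Arhgef18, an activator of RhoA, had 70.3 and 71.8 TPM in the knockout libraries, against 98.5 and 103 TPM in the control libraries (limma adjusted p = 0.00201). Its region had a fold enrichment of 17.8 and 17.8 in the knockout libraries, against 8.75 and 8.83 in the control libraries.

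The remaining calls at gene starts were less firm. Bmpr1a, a BMP receptor, Sema5a, a semaphorin, Gspt2, a translation termination factor, and G530011O06Rik had limma adjusted p-values of 0.0321, 0.0213, 0.0352 and 0.0462, and each call was lost without any 1 of the 4 libraries. The adjusted p without 1 library ran up to 0.14 for Bmpr1a and Gspt2, 0.1 for Sema5a and 0.18 for G530011O06Rik. Thbs2, a thrombospondin of the matrix, had 32.2 and 26.8 TPM in the knockout libraries, against 19.6 and 20 TPM in the control libraries (limma adjusted p = 0.0145). Ccdc8 had 19.1 and 18.3 TPM in the knockout libraries, against 12.8 and 13 TPM in the control libraries (limma adjusted p = 0.0126). The calls of Thbs2 and Ccdc8 were lost without knockout library 1 (adjusted p of 0.058 and 0.066), control library 1 (0.079 and 0.063) or control library 2 (0.073 and 0.06).

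Sequence could be read only at gene starts. RefSeq promoter windows of 300 bases (250 before and 50 after a start) lay with at least 150 bases inside 49 strengthened regions, taking 1 window per region. Their median GC content was 57.3% with 10 CpG, against 61.7% with 21 CpG in the 10341 windows in shared regions and 52.7% with 7 CpG in all 32817 promoter windows. They thus held fewer CpG than other open promoters and more than promoters at large. TGGGAA (RBPJ, the DNA-binding partner of Notch) was in 19 of the 49 (38.8%), against 22% of the windows in shared regions and 25.6% of all promoters. TTGCNNAA (C/EBP) was in 16.3%, against 7.99% and 10.8%. AGATAA (for GATA factors) was in 8.16%, against 5.51% and 11.2%. TTCAAAG (TCF/LEF) was in 1 of the 49 (2.04%), against 3.25% and 5.14%.

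All motifs were searched on both strands. GGAAGT (ETS) was in 18.4% of the strengthened windows, against 29.4% of those in shared regions and 23.8% of all promoters, and GGGCGG (SP/KLF) in 51%, against 66.5% and 35.6%. GAGGAAGT (PU.1), which contains the ETS motif, TGTGGTT (RUNX) and the NF-kappaB motif were in none, against 3.92%, 4.3% and 1.47% in shared regions and 3.2%, 5.27% and 1.47% of all promoters. The E-boxes CAGCTG and CAGGTG were in 10.2% and 6.12%, against 15.6% and 17.5% in shared regions and 16.3% and 20.2% of all promoters. CACGTG (a MITF-type E-box) was in 12.2%, against 10.8% and 7.15%, and TGANTCA (AP-1) in 6.12%, against 4.99% and 7.81%. TGACAG (MEIS) was in 18.4%, against 16.7% and 19.2%, and TGATTTA (HOX) in 4.08%, against 1.33% and 2.97%. TTCNNNGAA (STAT) was in 4.08%, against 6.44% and 8.29%, the IRF motif in 2.04%, against 2.84% and 3.43%, and the CTCF motif in 2.04%, against 3.47% and 2.43%. With 49 windows, 1 window is 2.04%, and no test of these shares was made.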

How the data were processed

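The 8 libraries are 4 of RNA and 4 of ATAC-seq, each with 2 knockout and 2 control libraries, grouped by their titles. Per the submitters' processing notes, HISAT2, StringTie, Bowtie2 and MACS2 were used with the mm10 build and no versions are stated. The deposited TPM is the authors' level per transcript length scaled to the library, and the deposited FPKM was used as an alternative. The ratio of the deposited coverage signal to FPKM, which follows depth, was 2.638 and 2.63 in knockout and 2.412 and 2.122 in control libraries; counts were not used, so no counting error per gene is given. The peak lists, 1 per library, hold the authors' fold enrichment (a ratio to local background) and −log10 q, per the file format. Fold enrichment was used to choose and describe regions.

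RNA was tested with limma 3.58.1 in R 4.3.3 (lmFit, eBayes with trend) on log2(TPM + 1), genotype only, over genes with a mean of at least 1 TPM, and adjusted by Benjamini-Hochberg over 13228 genes. A log2 change on this scale understates the change of low genes. The fit was tested on simulated data. Gene starts are those of the deposited StringTie gene models, and distance runs from a region's midpoint. Same-numbered libraries did not deviate together (correlation 0.00432 for RNA and -0.00226 for ATAC), so numbers were not used as pairs. Motifs were planned for windows around peak summits; no genome was used here, so they were counted in RefSeq promoter windows, and the capitals shown were chosen after the counts were seen.

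The genes named are Tcf7 and Lef1, the nearest genes of the 10 strongest regions, the 10 genes with the most regions (ties by summed difference), the 10 largest called rises and falls within 100 kb, every listed gene nearest to a region, and the 3 regions on each side of the limit; the genes called within 1 kb, Cyp2j6, Prickle2, Pik3cd and the sort markers were added after their values were seen. Spag9, Pakap and Gm30509 were also added after their values were seen. The regions, the gene lists and the tests were chosen with earlier results of these data known. Whether the authors quantified RNA by strand is not stated.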

Additional observations from a re-analysis of the deposited data

How the results depend on the processing

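The choice of regions depended on every library: with 1 ATAC library left out, 651 to 707 of the 1000 strengthened regions were chosen again, 5.3% to 6.3% lay within 1 kb of a gene start, and 28589 to 29310 shared regions had every knockout value above every control value. Other settings kept 699 (ranked on −log10 q) to 1000 (no centring); ranked on −log10 q, 9.8% lay within 1 kb of a gene start. With 1 RNA library left out, 2005 to 2242 genes were called higher and 1088 to 1450 lower, and among nearest genes 84 to 105 and 49 to 75, with a median log2 change of 0.101 to 0.142; these fits have fewer samples. That median was 0.052 with no filter on low values, 0.024 after median-ratio scaling, 0.054 after quantile normalization, 0.076 on FPKM and 0.211 within 20 kb, where 76 were higher and 33 lower; the cause was not tested. Over all tested genes the same scalings gave medians of 0.004, 0.014, 0.030 and 0.065.

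Of 66 named genes tested, 45 were called; over 12 alternatives 15 of these lost the call at least once, 6 others gained one, and 7 changed sign, 0 of which were called. Between leave-one-out fits Lef1 ran from -0.08 (without control library 2) to 0.26, Trim33 reached 0.00 (without knockout library 2), Ankrd46 ran from -0.04 to 0.04 (above 0 without knockout library 2, at 0.01, or control library 2), Clcn3 from -0.17 to 0.03 (without control library 1), Mir7661 from -1.72 to 0.51 (without control library 2) and Spry2 from -0.18 to 0.18 (without knockout library 1 or control library 1); Lyn was at -0.05 and -0.06 after median-ratio scaling and quantile normalization. With the replicate number as a block, 3072 genes were called higher and 1798 lower, and 127 and 79 among nearest genes; for ATAC the block kept 734 strengthened regions and left 24823 shared regions with both differences above 0. The numbers did not pair the libraries (correlation 0.00432 for RNA and -0.00226 for ATAC). 2 libraries per genotype and the coarse steps of low peaks limit all values.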
